A study of Mus musculus with 20 samples.

Results

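The 9 ligands of the tumor necrosis factor (TNF) superfamily described here are Tnf, Lta, Ltb, Tnfsf8, Tnfsf10, Tnfsf11, Tnfsf14, Fasl and Cd40lg, chosen by their symbols from the 23992 gene symbols that the RNA-seq files list. Their mRNA was followed in mouse regulatory T cells (Tregs) and CD8+ T cells that were left unstimulated or exposed to 200 nM IL-2 or 200 nM IL-2-REH for 1.5 hr or 4 hr. IL-2-REH is a mutant IL-2 with weakened binding to the common gamma chain of the IL-2 receptor, which makes it a partial agonist. Each of the 5 Treg groups had 3 libraries, and each of the 5 CD8+ groups had 1. Tregs were CD4+ cells sorted for GFP from B6-Foxp3EGFP mice, in which GFP marks Foxp3 expression, while CD8+ T cells were enriched by kit, without a sort, from C57BL/6J mice. The strain label reads C57BL/6N for both cell types, and the study's list of materials gives female mice for both source strains. The age of these mice was not given in the sources used here. The tissue label was spleen and lymph node for all groups. Nothing in the labels says whether replicates came from separate animals, so p-values measure only the spread between these libraries, which may be technical.

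TNF superfamily ligands are mostly trimeric membrane proteins, some of them shed or secreted, that bind receptors of the TNF receptor superfamily. Receptors with a death domain, such as Fas and TNF receptor 1, can start apoptosis, whereas CD40, CD30, RANK and the lymphotoxin beta receptor signal mainly through TRAF proteins to NF-kB. In T cells these ligands serve as effector molecules, as help for B cells and dendritic cells, and as signals that organize lymphoid tissue. IL-2 acts on T cells through JAK kinases and the transcription factor STAT5.

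The libraries held 20201392 to 63903764 reads on genes (median 42327261), with the lowest total in replicate 3 of Tregs given IL-2 for 4 hr. Foxp3, the transcription factor that defines Tregs, ranged from 65.2 to 252 RPKM (reads per kilobase of exon, scaled to the number of mapped reads) in Tregs and from 0.482 to 0.999 RPKM in CD8+ T cells, and Cd8a ranged from 0.09 to 1.84 RPKM in Tregs and from 103 to 256 RPKM in CD8+ T cells. In replicate 3 of the Tregs, the summed RPKM of 5 erythroid markers lay between 132 and 230, compared with 5.3 to 20.5 in the other Treg libraries, and that of 5 B cell markers lay between 7.8 and 19.1, compared with 2.1 to 9.7. Replicate 1 of the unstimulated Tregs stood apart from the other unstimulated libraries, with 1060 summed RPKM for 5 Treg markers compared with 684 and 662. The part of these differences in the results below was not tested. Cish, a STAT5 target used as a check of the response, rose in Tregs given IL-2 for 1.5 hr by 2.12 on the log2 scale (adjusted p = 7.6e-05, edgeR) and was at 30.6 RPKM in CD8+ T cells given IL-2 for 1.5 hr, compared with 1.87 RPKM without cytokine.

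Levels of the ligands differed over a wide range. Per length, Ltb, the membrane anchor of the lymphotoxin heterotrimer, had the highest mean RPKM of the 9 ligands in each of the 10 groups, with 212 ± 71.5 RPKM (SD, n = 3) in unstimulated Tregs and 181 RPKM in the unstimulated CD8+ library. Unstimulated Tregs ranked Ltb first, followed by Tnfsf8, Cd40lg, Lta, Tnf, Tnfsf11, Tnfsf10, Fasl and Tnfsf14. Only Ltb and Tnfsf8 had separate ranges in this order, and each later pair of neighbours overlapped. Tnfsf14, which encodes LIGHT, was lowest in all 5 Treg groups, and its reads per Treg library lay between 22 and 466. In CD8+ T cells, Tnfsf11 and Cd40lg were at 0.241 to 0.489 RPKM and 0.307 to 1.54 RPKM and were the 2 ligands that did not reach a mean of 1 RPKM over the 5 CD8+ libraries. In bulk RNA, fewer cells that express a gene cannot be told apart from less RNA per cell.

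**Figure D1:**
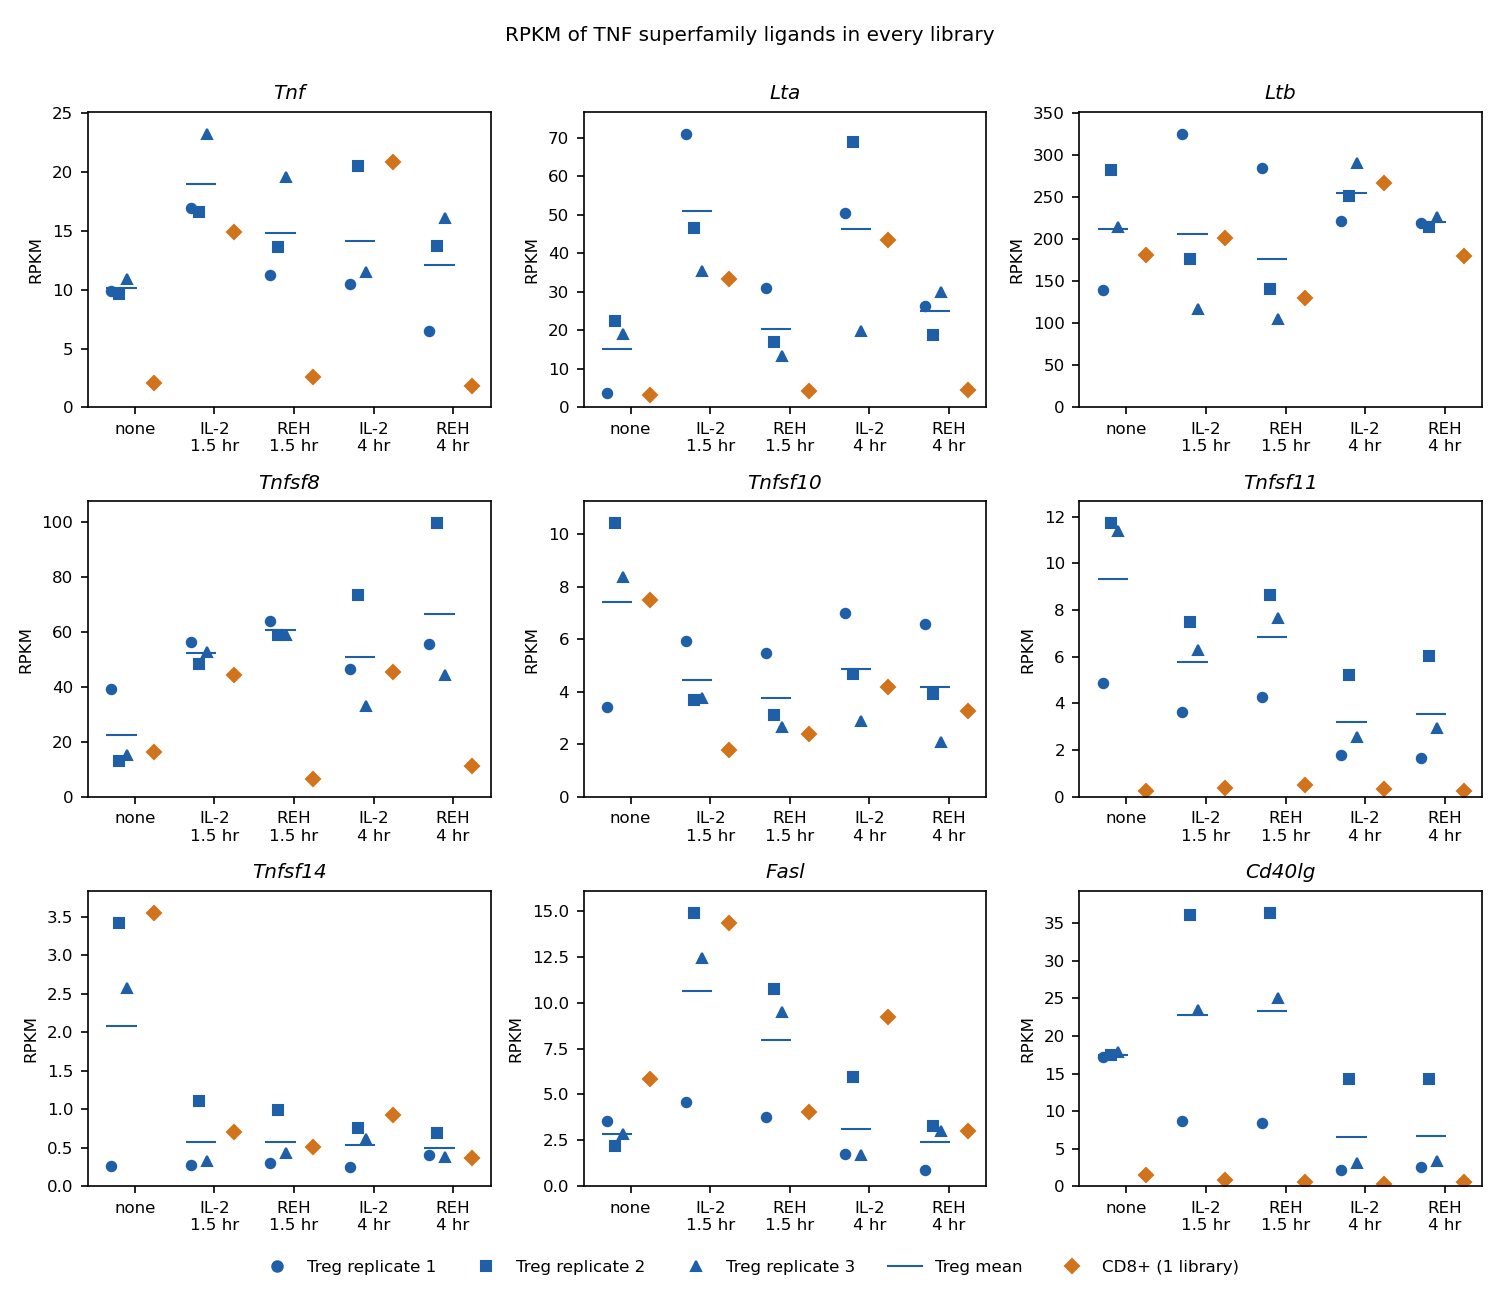
RPKM of the 9 ligands (linear axis from 0, scaled to each gene) by condition, with blue symbols for the 3 Treg replicates, a blue line for their mean and an orange diamond for the single CD8+ library. Tnf and Lta of the CD8+ libraries are high with IL-2 (14.9 and 20.8 RPKM, 33.4 and 43.4 RPKM) and low with IL-2-REH, while Tnfsf11 and Cd40lg are near the axis in CD8+ T cells.

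Ltb, Tnf and Lta lie side by side in the major histocompatibility complex on chromosome 17 (GRCm38). Ltb occupies chr17:35194507-35196305 on the plus strand. Tnf occupies chr17:35199367-35202007 on the minus strand, 3061 bp from Ltb, and Lta occupies chr17:35203165-35205578 on the minus strand, 1157 bp from Tnf. Reads were assigned without a stated use of strand, and the microRNA genes Mir6974 and Mir6973a overlap Lta and Ltb, so reads in those overlaps are uncertain. Tnfsf14 is also on chromosome 17, at chr17:57189474-57194181. The remaining ligands are Fasl (chr1:161780691-161788495), Tnfsf10 (chr3:27317077-27339665), Tnfsf8 (chr4:63831202-63861508), Tnfsf11 (chr14:78277446-78308043) and Cd40lg (chrX:57212143-57224042).

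The RefSeq promoter table (GRCm38.p6) held 8 of the 9 ligands, and for 6 of them its start was that of the transcript used here. The 250 bases before the start of Tnf and Ltb are shown because Ltb had the highest level of the ligands while its neighbour Tnf was among those with the largest ratios in CD8+ T cells, and those of Tnfsf11 because it fell in Tregs in the fit with a replicate block. Capitals mark letters that match TTCNNNGAA (the STAT motif), TGANTCA (AP-1), TATAAA or the NF-kB consensus on either strand. No capitals overlap each other.
Tnf, minus strand, chr17:35202008-35202257: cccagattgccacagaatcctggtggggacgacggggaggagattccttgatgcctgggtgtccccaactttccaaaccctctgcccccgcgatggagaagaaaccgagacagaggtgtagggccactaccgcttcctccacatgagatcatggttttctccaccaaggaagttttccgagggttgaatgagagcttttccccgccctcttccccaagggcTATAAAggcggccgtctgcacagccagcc
Ltb, plus strand, chr17:35194257-35194506: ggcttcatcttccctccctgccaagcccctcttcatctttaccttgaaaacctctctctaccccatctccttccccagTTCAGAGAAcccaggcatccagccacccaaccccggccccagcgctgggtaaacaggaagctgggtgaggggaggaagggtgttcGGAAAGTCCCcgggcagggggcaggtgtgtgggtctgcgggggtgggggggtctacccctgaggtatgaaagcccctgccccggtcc
Tnfsf11, minus strand, chr14:78308044-78308293: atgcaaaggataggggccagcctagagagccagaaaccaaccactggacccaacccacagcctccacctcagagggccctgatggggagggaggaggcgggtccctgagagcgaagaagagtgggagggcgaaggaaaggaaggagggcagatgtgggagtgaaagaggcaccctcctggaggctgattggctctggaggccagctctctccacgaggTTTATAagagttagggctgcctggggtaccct
Among the 6 windows, the STAT letters and the NF-kB consensus were found in Ltb, which 7.02% and 3.9% of all 32841 promoter windows of this length hold. The AP-1 letters were found in Tnfsf14 (6.75% of windows). TATAAA was found in Tnf and Tnfsf11 (12.4%). The 5 letters GGAAA, the core of the NFAT site, were found in all 6 windows, compared with 55.6% of all windows, and their match in Ltb lies within that of the NF-kB consensus. A match describes letters and not a bound site.

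No ligand passed an adjusted p of 0.05 in the Tregs when replicate numbers were left out of the fit (edgeR quasi-likelihood test, 14992 genes, all 9 ligands tested). Of all genes, 0.854% passed with IL-2 at 1.5 hr and 2.26% with IL-2 at 4 hr compared with unstimulated cells, and 0.0934% and 0.314% passed with IL-2-REH at 1.5 hr and 4 hr. Before adjustment, 4 ligands were under 0.05 with IL-2 at 1.5 hr (13.8% of all genes), 4 with IL-2 at 4 hr (17.7%), 2 with IL-2-REH at 1.5 hr (11.4%) and 3 with IL-2-REH at 4 hr (13.3%). In these comparisons DESeq2 called 3 ligands (Lta, Tnfsf8 and Fasl, background 4.39%), 2 (Lta and Tnfsf11, 6.88%), 1 (Tnfsf8, 0.872%) and 1 (Tnfsf8, 4.32%), in the same order. Limma on log2(RPKM + 1) called 0 of the 8 it tested in each. Of all genes that limma tested, 1.03%, 2.54%, 0.0% and 0.239% passed, in the same order. Same-numbered libraries deviated together, and with the replicate number as a block edgeR called 0 ligands at 1.5 hr (background 1.83% for IL-2 and 0.213% for IL-2-REH). At 4 hr with the block, Tnfsf11 and Cd40lg fell with IL-2 (6.94% of genes called, 4.08% lower) and also in the IL-2-REH group (3.03% called, 2.01% lower). The median log2 fold change of the 9 ligands in the fit without the block was 0.57 for IL-2 and 0.59 for IL-2-REH at 1.5 hr, and 0.11 and -0.29 at 4 hr, with medians of all genes between -0.06 and 0.01. With the block these medians of the ligands were 0.08, 0.11, -0.21 and -0.66.

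**Figure D2:**
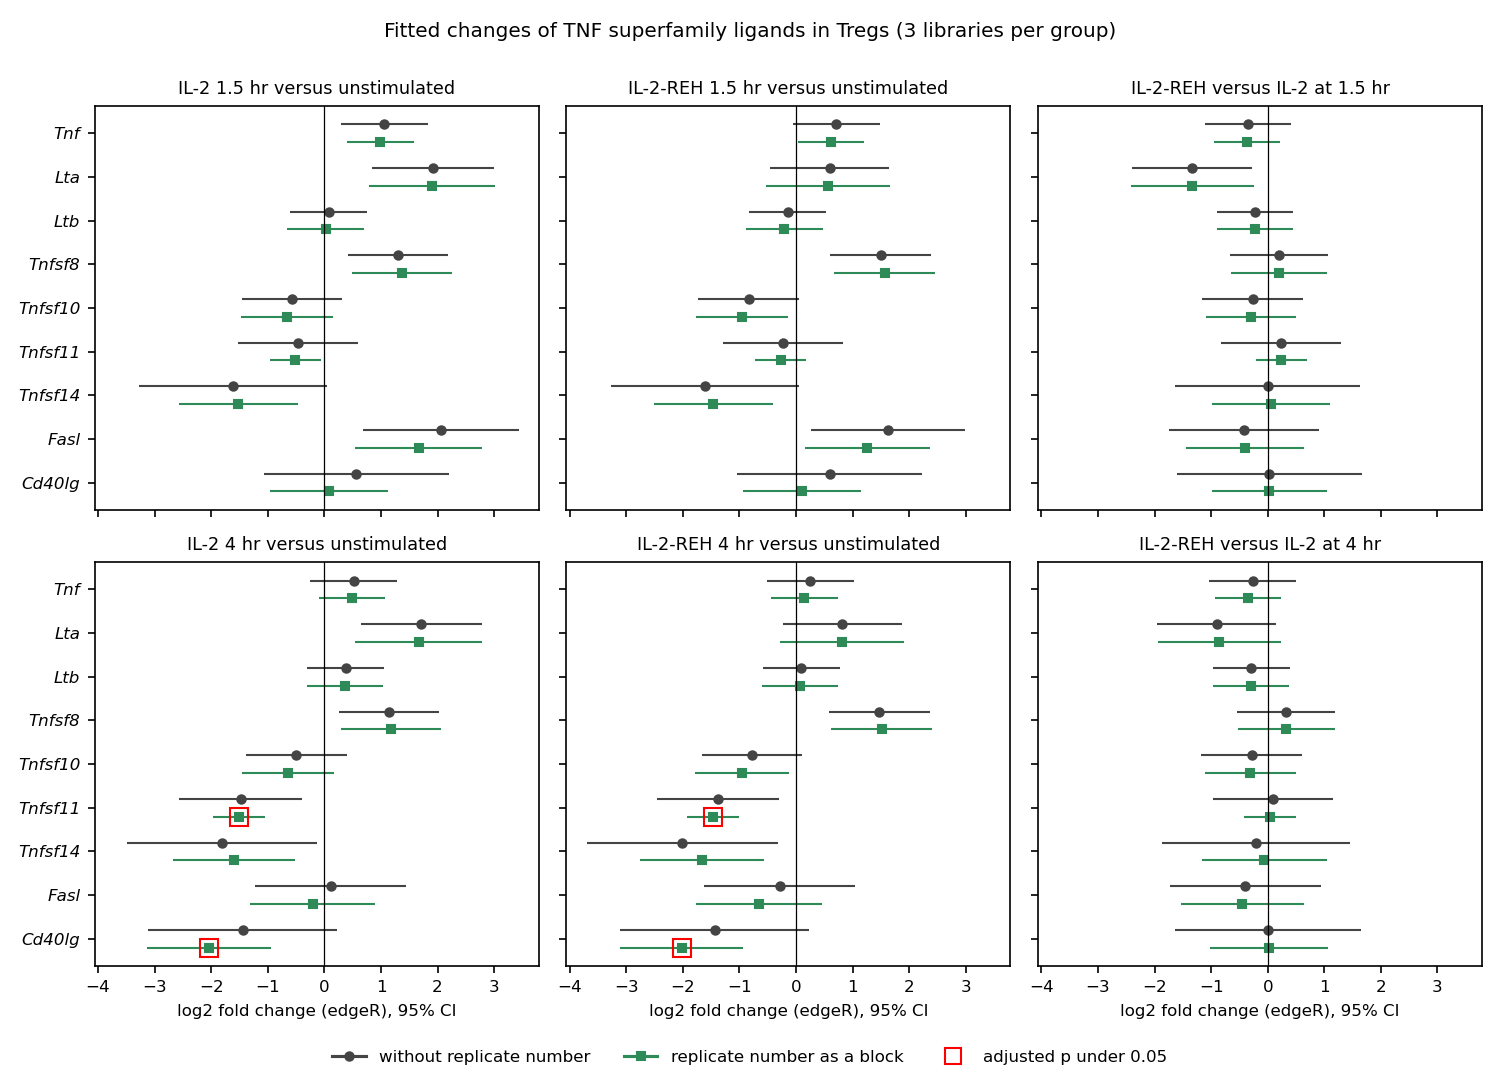
Fitted log2 fold changes of the 9 ligands in Tregs with their 95% confidence intervals (edgeR, 3 libraries per group), in grey without and in green with the replicate number as a block, with a red outline for an adjusted p under 0.05. The 4 outlined values are those of Tnfsf11 and Cd40lg at 4 hr in the fit with the block, and each interval of the comparison between the cytokines spans 0 except that of Lta at 1.5 hr.

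Tnf and Lta encode the secreted or shed homotrimers TNF and lymphotoxin alpha, which share TNF receptors 1 and 2. In unstimulated Tregs, Tnf was at 9.87, 9.66 and 10.9 RPKM in replicates 1 to 3, and with IL-2 for 1.5 hr it was at 16.9, 16.6 and 23.3 RPKM. Every IL-2 library at 1.5 hr was above every unstimulated one, as for 3 other ligands (12.7% of genes had separate ranges). The fitted log2 fold change was 1.06 (SE 0.36, adjusted p = 0.22), and without replicate 1 of every group edgeR called Tnf higher, by 1.27 (background 17.3%). With IL-2-REH for 1.5 hr, Tnf was at 11.3, 13.6 and 19.5 RPKM, again above each unstimulated library (9.98% of genes had separate ranges), with a log2 fold change of 0.71 (adjusted p = 0.46). At 4 hr the Treg levels of Tnf overlapped those of unstimulated cells, with 10.5, 20.5 and 11.5 RPKM for IL-2 and 6.51, 13.7 and 16.1 RPKM for IL-2-REH.

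Lta differed between replicates before any cytokine, with 3.84 RPKM in replicate 1 of the unstimulated Tregs and 22.3 and 19.0 RPKM in replicates 2 and 3. With IL-2 for 1.5 hr it was at 71.0, 46.6 and 35.3 RPKM, which was 18.5, 2.09 and 1.86 times the unstimulated library of the same number. The ranges did not overlap, and the log2 fold change was 1.93 (SE 0.50, adjusted p = 0.11). Without replicate 1 of the unstimulated Tregs, edgeR called Lta higher at this time, by 1.50 on the log2 scale (background 12.9%). With IL-2 for 4 hr, Lta was at 50.5, 68.9 and 19.9 RPKM, with a log2 fold change of 1.72 (adjusted p = 0.096). The lowest of these, replicate 3, came from the shallowest library and lay within the unstimulated range. With IL-2-REH, Lta was at 31.05, 17.0 and 13.2 RPKM at 1.5 hr and at 26.3, 18.8 and 29.8 RPKM at 4 hr, and both groups overlapped the unstimulated one.

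In CD8+ T cells, Tnf and Lta were the ligands past a log2 ratio of 2 with IL-2, at both times, where the ratio is of RPKM + 1 between 2 single libraries and was not tested. Of the 10021 genes with a mean of at least 1 RPKM, 0.489% passed in either direction at 1.5 hr and 0.539% at 4 hr. Of the 9 ligands, 7 were among these genes. Tnf went from 2.03 RPKM (206 reads) without cytokine to 14.9 RPKM (1710 reads) at 1.5 hr and 20.8 RPKM (2332 reads) at 4 hr. The ratios were 7.34 (95% counting interval 6.34 to 8.52) and 10.3 (8.90 to 11.9). Lta went from 3.21 RPKM (273 reads) to 33.4 RPKM (3212 reads) and 43.4 RPKM (4063 reads), with ratios of 10.4 (9.19 to 11.8) and 13.5 (11.9 to 15.3). These exact intervals cover counting error alone and not the spread between cultures. With IL-2-REH, no ligand was past a log2 ratio of 2 (background 0.559% at 1.5 hr and 0.599% at 4 hr). There Tnf was at 2.55 and 1.77 RPKM and Lta at 4.33 and 4.37 RPKM, at 1.5 hr and 4 hr, which was 0.873 to 1.36 times the unstimulated level. Cish, for comparison, was at 2.47 and 2.45 RPKM in these IL-2-REH libraries.

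Ltb, whose product holds lymphotoxin alpha at the cell surface as a ligand of the lymphotoxin beta receptor, had no common direction in Tregs. Unstimulated Tregs had 139, 282 and 214 RPKM, and Tregs given IL-2 for 1.5 hr had 325, 176 and 117 RPKM. Thus Ltb was 2.34 times higher in pair 1 and 0.624 and 0.548 times its unstimulated level in pairs 2 and 3, and the same split was seen with IL-2-REH, at 285, 140 and 105 RPKM. At 4 hr the libraries were closer together, with 222, 251 and 291 RPKM for IL-2 and 220, 214 and 226 RPKM for IL-2-REH. The CD8+ libraries held Ltb at 181 RPKM without cytokine, at 201 and 266 RPKM with IL-2 for 1.5 hr and 4 hr, and at 130 and 180 RPKM with IL-2-REH.

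Tnfsf8 encodes CD30 ligand, the partner of the receptor CD30 on activated lymphocytes. In unstimulated Tregs it was at 39.1, 13.1 and 15.4 RPKM, with the high value again in the replicate 1 that stood apart. It was at 56.4, 48.5 and 52.6 RPKM with IL-2 and at 63.8, 58.9 and 58.9 RPKM with IL-2-REH for 1.5 hr, so that all treated libraries were above all unstimulated ones. The log2 fold changes were 1.30 with IL-2 (SE 0.41, adjusted p = 0.19) and 1.50 with IL-2-REH (SE 0.41, adjusted p = 0.38). At 4 hr, Tnfsf8 was at 46.5, 73.4 and 33.1 RPKM with IL-2 and at 55.8, 99.6 and 44.5 RPKM with IL-2-REH, and only the IL-2-REH group did not overlap the unstimulated one (separate ranges in 13.7% of genes). Without replicate 1 of the unstimulated Tregs, edgeR called Tnfsf8 higher in each of the 4 comparisons, by 1.94 to 2.30 on the log2 scale. The background without that library was 12.9% and 8.87% with IL-2 and 12.1% and 6.93% with IL-2-REH, at 1.5 hr and 4 hr.

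CD8+ T cells showed another order for Tnfsf8. From 16.1 RPKM without cytokine, it was at 44.3 and 45.6 RPKM with IL-2 for 1.5 hr and 4 hr, which was 2.75 times (95% counting interval 2.62 to 2.88) and 2.82 times (2.69 to 2.97) higher. With IL-2-REH it was at 6.51 and 11.1 RPKM, which was 0.404 (0.373 to 0.436) and 0.686 (0.644 to 0.730) times the unstimulated level. The IL-2-REH values were thus below the unstimulated CD8+ library, whereas the Treg libraries given IL-2-REH were above each unstimulated Treg library. None of these CD8+ ratios was past a log2 ratio of 2.

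Fasl encodes Fas ligand, which triggers death through Fas and is used by cytotoxic cells. Treg levels were 3.56, 2.21 and 2.83 RPKM without cytokine and 4.57, 14.9 and 12.4 RPKM with IL-2 for 1.5 hr, with no overlap and a log2 fold change of 2.05 (SE 0.64, adjusted p = 0.18). With IL-2-REH for 1.5 hr they were 3.76, 10.7 and 9.50 RPKM, also above each unstimulated library, with a log2 fold change of 1.63 (adjusted p = 0.40). In both groups replicate 1 was the lowest, close to the unstimulated range. Without replicate 1 of every group, edgeR called Fasl higher at 1.5 hr, by 2.72 with IL-2 (background 17.3%) and by 2.27 with IL-2-REH (15.7%) on the log2 scale. By 4 hr, Fasl was at 1.74, 5.96 and 1.72 RPKM with IL-2 and at 0.889, 3.31 and 3.02 RPKM with IL-2-REH. It was lower at 4 hr than at 1.5 hr in each of the 3 pairs for both cytokines, by 1.95 and 1.92 on the log2 scale (adjusted p = 0.21 and 0.25, edgeR), while no gene passed these 2 comparisons (background 0.0%). Before adjustment, 2 and 3 ligands were under 0.05 (17.0% and 14.6% of genes), and DESeq2 called Fasl for IL-2 (3.1%) and 0 ligands for IL-2-REH (1.99%). The block gave 0 ligands (0.387% and 0.04%), and without replicate 1 of every group edgeR called Fasl lower for both cytokines (4.32% and 3.96%). For IL-2-REH the groups did not overlap (background 19.1% of genes). The CD8+ libraries held Fasl at 5.83 RPKM without cytokine, 14.3 and 9.21 RPKM with IL-2 at 1.5 hr and 4 hr, and 4.04 and 3.03 RPKM with IL-2-REH.

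Tnfsf10 encodes TRAIL, a ligand of death receptors. Its unstimulated Treg levels were 3.44, 10.4 and 8.38 RPKM, with the low value in replicate 1. In pairs 2 and 3 the treated libraries had 0.249 to 0.450 times the unstimulated level in the 4 comparisons, whereas in pair 1 they had 1.59 to 2.04 times that level. The log2 fold changes were between -0.84 and -0.49, with adjusted p between 0.45 and 0.57 (edgeR). Without replicate 1 in every group, edgeR called Tnfsf10 lower in each of the 4 comparisons, by 1.02 to 1.59 on the log2 scale, where the background rose to 17.3% and 13.4% with IL-2 and to 15.7% and 10.7% with IL-2-REH. Among CD8+ libraries, Tnfsf10 went from 7.52 RPKM to 1.78 and 4.20 RPKM with IL-2 and to 2.38 and 3.26 RPKM with IL-2-REH, so all 4 treated libraries were below the unstimulated one.

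Tnfsf11 encodes RANK ligand, which supports osteoclasts, dendritic cells and thymic epithelium, and Cd40lg encodes CD40 ligand, the main signal of helper T cells to B cells. Tnfsf11 was at 4.87, 11.7 and 11.4 RPKM in unstimulated Tregs, at 3.63, 7.47 and 6.29 RPKM with IL-2 for 1.5 hr and at 1.80, 5.23 and 2.56 RPKM with IL-2 for 4 hr. With IL-2-REH it was at 4.26, 8.65 and 7.68 RPKM and then at 1.68, 6.01 and 2.96 RPKM. Each of the 3 pairs was lower than unstimulated in all 4 comparisons, although the group ranges overlapped. In the fit with the block, Tnfsf11 fell at 4 hr by 1.51 (SE 0.21, adjusted p = 0.0015) with IL-2 and by 1.47 (SE 0.21, adjusted p = 0.0034) with IL-2-REH on the log2 scale, compared with adjusted p of 0.15 and 0.24 without the block and up to 0.94 and 1.0 over the 15 settings tried. At 1.5 hr the fall did not pass with the block for IL-2 (log2 fold change -0.52, adjusted p = 0.21).

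Cd40lg was at 17.3, 17.5 and 17.8 RPKM in the 3 unstimulated Treg libraries, the smallest spread of replicates among the 9 ligands in that group. At 1.5 hr the replicates spread apart, with 8.63, 36.1 and 23.5 RPKM for IL-2 and 8.40, 36.4 and 25.1 RPKM for IL-2-REH. Thus each replicate number gave nearly the same level with either cytokine, and the ratio of IL-2-REH to IL-2 was 0.973, 1.01 and 1.07. By 4 hr Cd40lg was at 2.17, 14.2 and 3.15 RPKM with IL-2 and at 2.53, 14.3 and 3.36 RPKM with IL-2-REH, below each unstimulated library (separate ranges in 14.7% and 13.7% of genes). In the fit with the block it fell by 2.04 (SE 0.51, adjusted p = 0.029) and 2.02 (SE 0.51, adjusted p = 0.049) on the log2 scale, compared with adjusted p of 0.35 and 0.46 without the block and up to 0.99 and 1.0 over the 15 settings tried. Its CD8+ reads were 26 to 118 per library.

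Tnfsf14 was low in most Treg libraries. It was at 0.258, 3.42 and 2.58 RPKM (30, 466 and 293 reads) without cytokine, and the 12 treated libraries held 0.249 to 1.11 RPKM. The unstimulated group overlapped the treated ones through replicate 1 alone. The fitted log2 fold changes lay between -2.01 and -1.61 (adjusted p between 0.25 and 0.45, edgeR). Without replicate 1 of the unstimulated Tregs, edgeR called Tnfsf14 lower with IL-2 at 1.5 hr and 4 hr and with IL-2-REH at 4 hr. The background in that setting was 12.9%, 8.87% and 6.93% of all genes. With IL-2 at 1.5 hr the adjusted p of this edgeR fit was 0.0499997, barely under the threshold. The CD8+ libraries went from 3.55 RPKM (408 reads) to 0.708 and 0.924 RPKM with IL-2 and to 0.507 and 0.362 RPKM with IL-2-REH. In the unstimulated CD8+ library, 4 NK cell markers summed to 39.6 RPKM, compared with 19.4 to 23.7 RPKM in the treated ones, 5 B cell markers to 12.8 compared with 3.8 to 5.4 RPKM, and 2 T cell markers to 558 compared with 286 to 348 RPKM. Their part in the lower Tnfsf14 and Tnfsf10 of treated CD8+ T cells was not tested. In Tregs, the 4 NK cell markers summed to 1.26, 8.23 and 5.56 RPKM in unstimulated replicates 1, 2 and 3. Treated Treg libraries held 0.599 to 6.30 RPKM. The part of these markers in the Treg levels of Tnfsf14 was not tested either.

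The direct comparison of the cytokines asks whether the partial agonist leaves a ligand at another level than IL-2 at the same dose and time. In Tregs no ligand passed at 1.5 hr (background 0.0133%, 1 ligand and 0.994% of genes under 0.05 before adjustment) or at 4 hr (0.0267%, 0 ligands and 3.73% before adjustment), nor did any pass with DESeq2 (0.0699% and 0.403%), limma (0.0% at both times) or the block (0.0133% and 0.0667%). At 1.5 hr Lta was lower with IL-2-REH than with IL-2 in all 3 pairs, at 0.437, 0.365 and 0.375 times the IL-2 level. The groups did not overlap (background 5.46%), and the log2 difference was -1.33 (95% confidence interval -2.39 to -0.27, adjusted p = 1.0, edgeR). At 4 hr Lta was at 0.521 and 0.273 times the IL-2 level in pairs 1 and 2 and at 1.50 times in pair 3, with a log2 difference of -0.90 (-1.95 to 0.15). Tnfsf8 went the other way, at 1.13, 1.22 and 1.12 times the IL-2 level at 1.5 hr, where the groups did not overlap, and 1.20, 1.36 and 1.34 times at 4 hr. Its log2 differences were 0.20 (-0.67 to 1.07) and 0.33 (-0.55 to 1.20). For Tnf the differences were -0.35 (-1.11 to 0.41) and -0.26 (-1.03 to 0.50), and for Fasl -0.42 (-1.75 to 0.90) and -0.40 (-1.73 to 0.94). These intervals allow both no difference and one of more than 2 times lower, so they do not show that the cytokines act alike on Tnf or Fasl. The change of the cytokine difference from 1.5 hr to 4 hr passed for 0 ligands (background 0.0%, 0 ligands and 0.314% of genes under 0.05 before adjustment, and 0 by DESeq2 and limma).

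Among the CD8+ libraries 3 ligands were past a log2 ratio of 2, all lower with IL-2-REH than with IL-2 at 1.5 hr, and this was so for 0.0699% of all genes. Tnfsf8 had 903 reads in the IL-2-REH library and 6861 in that given IL-2 (ratio of RPKM 0.147, 95% counting interval 0.137 to 0.158). The other two were Lta (0.130, 0.116 to 0.144) and Tnf (0.171, 0.150 to 0.195). At 4 hr Lta (0.101, 0.091 to 0.111) and Tnf (0.085, 0.074 to 0.098) were past it, compared with 0.289% of all genes, and Tnfsf8 was at 0.243 (0.230 to 0.256). Fasl was at 0.282 (0.255 to 0.312) and 0.330 (0.294 to 0.368) times its IL-2 level. Ltb was at 0.644 and 0.675 times that level. The counting intervals of Tnfsf11, Tnfsf14 and Cd40lg at 1.5 hr spanned 1. At 4 hr Tnfsf11 and Tnfsf14 were lower with IL-2-REH (0.241 and 0.362 RPKM) than with IL-2 (0.337 and 0.924 RPKM). Cd40lg was higher with IL-2-REH at 4 hr (0.574 compared with 0.307 RPKM). Tnfsf10 was higher with IL-2-REH at 1.5 hr (2.38 compared with 1.78 RPKM) and lower at 4 hr (3.26 compared with 4.20 RPKM).

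**Figure D3:**
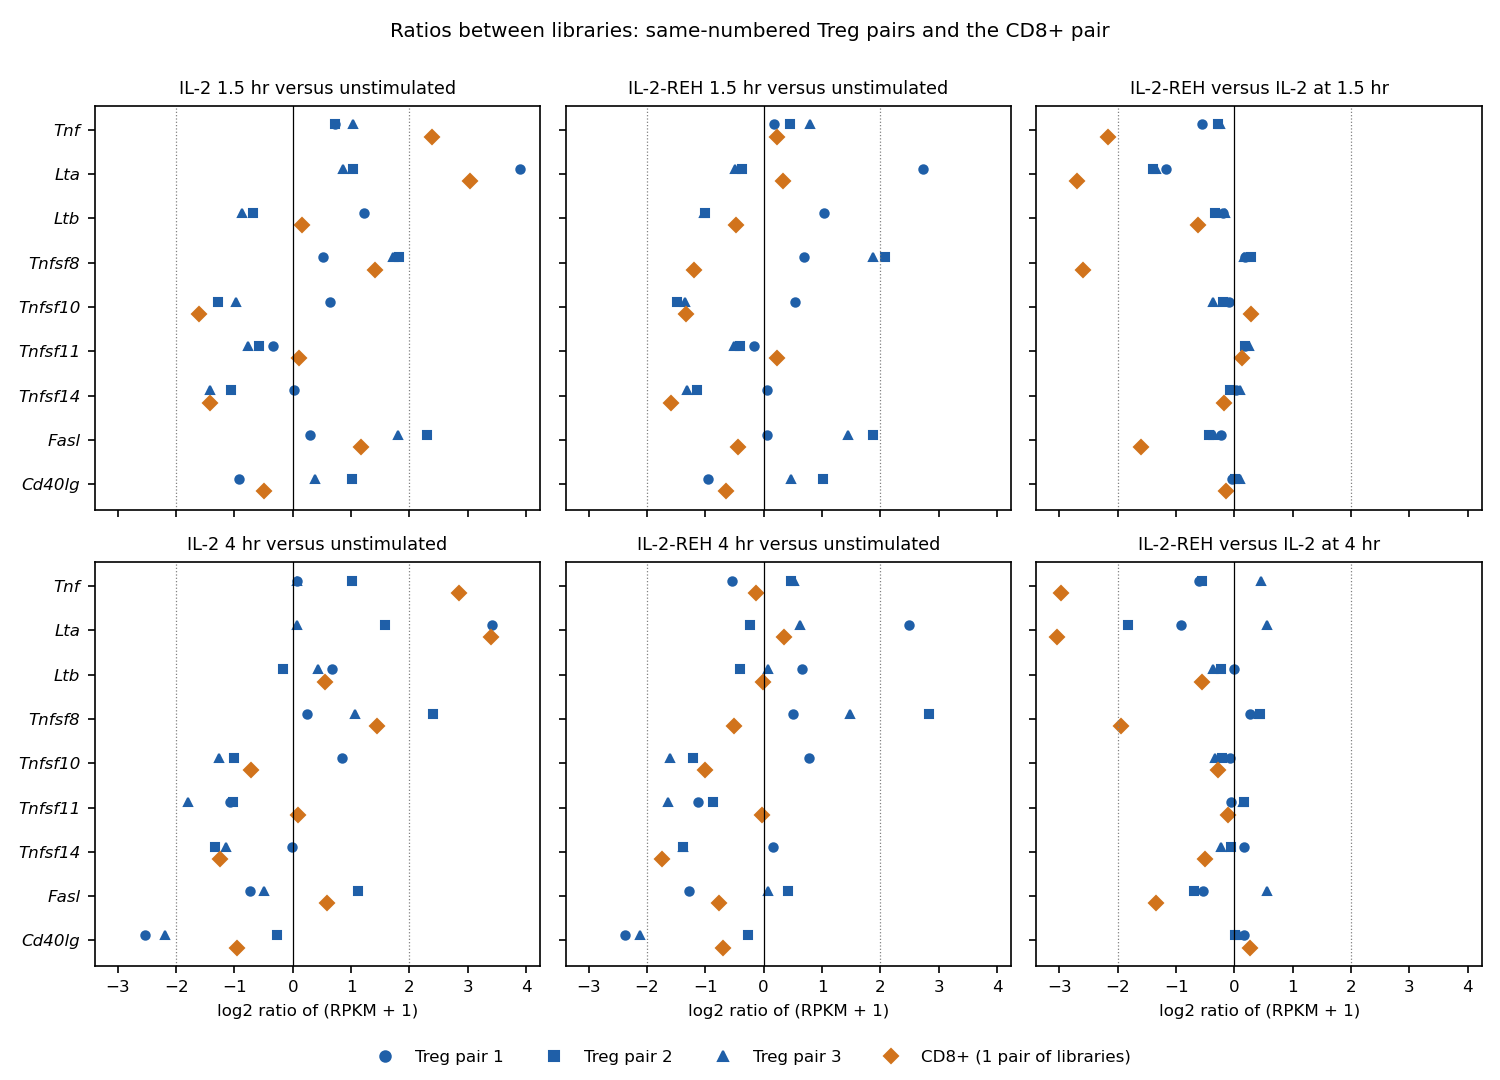
Log2 ratios of RPKM + 1 for the 9 ligands in 6 comparisons, with blue symbols for the 3 same-numbered Treg pairs, an orange diamond for the CD8+ pair and dotted lines at -2 and 2. In the panels that compare the cytokines, Tnf, Lta and Tnfsf8 of the CD8+ pair lie at -2.16, -2.69 and -2.59 at 1.5 hr, left of all Treg pairs.

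The cell types were not tested against each other. Each CD8+ group is 1 library, and CD8+ values were set against the range of the 3 Treg values. This was done for 10458 genes with a mean of at least 1 RPKM over the 20 libraries, among them 8 of the ligands. Tnfsf11 and Cd40lg passed this filter only through the Tregs. Their place below the Treg levels was favoured by that filter and is not read as a result. For the ratio of IL-2-REH to IL-2, the CD8+ value was outside the Treg range for 8 of 8 ligands at 1.5 hr (background 58.7%) and for 7 of 8 at 4 hr (55.0%). It was below that range for 7 and 6 of them, compared with 45.1% and 26.5% of all genes. Tnfsf11 and Cd40lg are among the 7, and Tnfsf11 is among the 6. Adding 1 to RPKM keeps the CD8+ ratios of these 2 ligands small. Tnfsf8 was at 0.147 times its IL-2 level in CD8+ T cells and at 1.12 to 1.22 times in Tregs at 1.5 hr, the widest gap of the ligands at this time on the log2(RPKM + 1) scale. In unstimulated cells, Tnf, Lta, Tnfsf11 and Cd40lg were below the Treg range in CD8+ T cells and Fasl was above it, which made 5 of 8 (55.9%). Tnfsf11 and Cd40lg, which entered through the Tregs, are counted as below in this and each of the following comparisons of levels. With IL-2-REH, 6 of 8 were outside it at each time, all below, compared with 64.1% of all genes outside at each time and 39.7% and 40.5% below at 1.5 hr and 4 hr. With IL-2, 6 of 8 were outside at 1.5 hr, all below (62.5% of genes outside, 32.7% below), and 4 of 8 at 4 hr (56.4%), and at 4 hr Tnf and Fasl were above the range, with 20.8 RPKM for Tnf in CD8+ T cells compared with 10.5 to 20.5 RPKM in Tregs. For the responses to IL-2, 3 of 8 (34.3%) and 2 of 8 (33.2%) were outside at 1.5 hr and 4 hr, and for those to IL-2-REH 3 of 8 (41.2%) and 2 of 8 (45.3%). Tnfsf11, which entered through the Tregs and has small CD8+ ratios, is counted as above the range in each of these comparisons of responses. Its place there is not read as a result.

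Among other genes of the pathway, Fas, Zfp36 and Zfp36l2 passed in the fit without the block. None of 7 further TNF superfamily ligands that could be tested (of 9 listed) passed in the 9 Treg comparisons, with or without the block, and all 9 were too low to enter the CD8+ comparison. Of 11 receptors of the ligands, 9 were tested in Tregs and 1 rose with IL-2 at 1.5 hr (0.78% of all genes rose), namely Fas, the receptor of Fas ligand. Its mean was 18.4 ± 7.47 RPKM without cytokine and 45.7 ± 4.40 RPKM with IL-2 (SD, n = 3), a log2 fold change of 1.49 (SE 0.26, adjusted p = 0.013). In the CD8+ comparison 5 receptors were high enough and none was past a log2 ratio of 2 in any of 6 comparisons. Of 9 genes linked to the shedding of TNF or to the decay of mRNAs such as that of Tnf, all were tested and 2 fell with IL-2 at 4 hr (1.09% of all genes fell). These were Zfp36, which encodes tristetraprolin (log2 fold change -1.99, adjusted p = 0.045), and its relative Zfp36l2 (-1.98, adjusted p = 0.020). With the block these 2 fell at 4 hr with IL-2-REH as well, and so did Tnfrsf8, the receptor CD30 (2.01% of all genes fell), while Fas rose at 4 hr with IL-2 (2.86% rose).

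Over the 20 libraries, after the mean of each cell type was subtracted, the genes with the pattern most like that of a ligand were listed for the 8 ligands with a mean of at least 1 RPKM. For Tnf it was Cish (Pearson r = 0.86 of log2(RPKM + 1)), for Lta Socs2 and Socs1 (0.91 and 0.91), for Tnfsf11 Nfatc1 (0.91), for Fasl Pvr (0.96) and for Cd40lg Spry1 (0.96). Ltb was most like Lypla2 (0.92), Tnfsf8 like Fam46a (0.82) and Tnfsf10 like Nceh1 (0.94). Within the ligands, Tnfsf11 and Cd40lg were the most alike (0.87), and the neighbours Tnf and Lta had r = 0.70. These values describe 20 libraries that share cell type, treatment and replicate number, and the highest of 10458 genes is high by selection.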

How the data were processed

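Counts and RPKM were deposited by the authors for each of the 20 libraries. Per the labels and the study's methods, single-end reads were mapped to mm10 with Bowtie2 2.2.6 and TopHat2 2.1.1, uniquely mapped reads on exons were counted, and counts were divided by exon length and mapped reads to give RPKM. Use of strand was not given in the sources used here. The deposited counts were not normalized. Per symbol, the transcript with the most reads over 20 libraries was taken. The ligands and gene lists were chosen with earlier results of these data known.

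Treg counts (15 libraries, 5 groups) were tested with edgeR 4.0.16 in R 4.3.3 (TMM, filterByExpr, glmQLFTest, Benjamini-Hochberg over 14992 genes, threshold 0.05). Same-numbered libraries deviated together from their group means (r = 0.12 to 0.84 across genes), so the replicate number, taken from the titles, was treated as a pairing, as a hint from the data, and fits with it as a block are given where they change a call. DESeq2 1.42.0 and limma 3.58.1 on log2(RPKM + 1) were alternatives. CD8+ libraries (1 per group) were compared by the log2 ratio of RPKM + 1, with a threshold of 2 and a mean of at least 1 RPKM. Intervals of CD8+ ratios are exact binomial and cover counting error only. All ligands are named. For each, the genes named as most like it had the highest Pearson correlation. Python 3.11.15, numpy 2.4.6, pandas 2.3.3, scipy 1.17.1 and matplotlib 3.10.9 were used.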

Additional observations from a re-analysis of the deposited data

Results flagged for a closer look

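The following ratios had one sign in the CD8+ pair of libraries and the opposite sign in all 3 same-numbered Treg pairs, on the log2(RPKM + 1) scale. With 1 CD8+ library per group, the difference between the cell types was not tested in any of them. Tnfsf8 with IL-2-REH compared with unstimulated cells was at -1.19 at 1.5 hr in CD8+ T cells and at 0.69 to 2.09 in the Treg pairs, and at -0.51 at 4 hr compared with 0.50 to 2.83. Between the cytokines, Tnfsf8 was at -2.59 at 1.5 hr in CD8+ T cells compared with 0.16 to 0.28 in the Treg pairs, and at -1.95 at 4 hr compared with 0.26 to 0.44. Fasl with IL-2-REH at 1.5 hr was at -0.44 in CD8+ T cells and at 0.06 to 1.87 in Tregs. Tnfsf10 between the cytokines at 1.5 hr was at 0.28 in CD8+ T cells and at -0.37 to -0.10 in Tregs. Tnfsf11 was at 0.11, 0.083 and 0.24 in CD8+ T cells with IL-2 at 1.5 hr, IL-2 at 4 hr and IL-2-REH at 1.5 hr, and at -0.76 to -0.34, -1.80 to -1.03 and -0.51 to -0.16 in the Treg pairs. The CD8+ values of Tnfsf11 rest on 36 to 68 reads per library. This ligand entered the compared genes only through the Tregs, and adding 1 to RPKM keeps its CD8+ ratios small. Its opposite signs are therefore not read as a result. Of all 10458 genes compared, 4.12% to 15.4% showed such opposite signs in the 6 comparisons.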

How the results depend on the processing

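In the Tregs, 0 ligands were called in each of the 9 comparisons, also with upper-quartile normalization, without a filter, with the longest transcript and with limma at both pseudocounts. In these alternatives at most 2.31%, 1.37% and 2.27% of all genes were called, and in limma 2.54% and 2.41% with pseudocounts 1 and 0.1. With so few genes called, a count of 0 is no result about the ligands. DESeq2 called 3 for IL-2 and 1 for IL-2-REH at 1.5 hr, 2 and 1 at 4 hr, and 1 for IL-2 at 4 hr versus 1.5 hr. The replicate block called 2 with each cytokine at 4 hr and changed no other call. Leaving out replicates one at a time gave 0 to 4 with IL-2 at either time and with IL-2-REH at 4 hr, 0 to 3 with IL-2-REH at 1.5 hr, and 0 to 1 between the times for each cytokine. All of these calls came without replicate 1 of every group or of the unstimulated Tregs, and the cause was not tested. Calls of all genes rose there too. Without replicate 1 of every group, 17.3% and 13.4% of genes were called with IL-2 at 1.5 hr and 4 hr. With IL-2-REH the shares were 15.7% and 10.7%, and between the times 4.32% for IL-2 and 3.96% for IL-2-REH. Without replicate 2 of every group, 0.00658% and 0.0197% of genes were called with IL-2 at 1.5 hr and 4 hr. Without replicate 3 of every group these shares were 0.0% and 0.0719%. With IL-2-REH they were 0.0% at both times in either setting. So few genes passed there that the counts of 0 are no result about the ligands. Leaving out replicate 3 of IL-2 at 4 hr, an alternative chosen after seeing the data, called 0 (at most 1.01% of all genes). Of the 56 Treg log2 fold changes of the ligands, 13 changed sign when libraries were left out, none of them past the threshold before or after. Those against unstimulated cells ranged from -0.45 to 0.33 (Ltb, IL-2 at 1.5 hr), -0.73 to 0.11 (Ltb, IL-2-REH at 1.5 hr), -0.086 to 0.30 (Ltb, IL-2-REH at 4 hr), -0.16 to 1.02 (Lta, IL-2-REH at 1.5 hr), -0.0015 to 0.61 (Tnf, IL-2-REH at 4 hr), -0.84 to 0.67 (Fasl, IL-2 at 4 hr), -0.74 to 0.38 (Fasl, IL-2-REH at 4 hr) and -0.0070 to 1.04 (Cd40lg, IL-2 at 1.5 hr). Those between the cytokines ranged from -0.10 to 0.27 (Tnfsf14 at 1.5 hr), -0.42 to 0.090 (Tnfsf14 at 4 hr), -0.0055 to 0.15 (Tnfsf11 at 4 hr), -0.92 to 0.098 (Fasl at 4 hr) and -0.28 to 0.049 (Cd40lg at 4 hr). Some of these also changed sign under other settings. Ltb with IL-2 at 1.5 hr was -0.11 in limma at both pseudocounts and -0.023 with upper-quartile normalization. Fasl with IL-2 at 4 hr was -0.21 with the block and -0.038 and -0.096 in limma with pseudocounts 1 and 0.1. Tnfsf14 between the cytokines at 1.5 hr was -0.0042 with upper-quartile normalization, and Cd40lg at 4 hr was -0.0050 without a filter.

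In CD8+ T cells a threshold of 1 in place of 2 gave 6 ligands with IL-2 at 1.5 hr, 4 at 4 hr, 3 and 2 for IL-2-REH at these times, and 4 between the cytokines at 4 hr. A pseudocount of 0.1 gave 4 with IL-2 at 1.5 hr and 1 with IL-2-REH at each time. Both settings let more of all genes pass as well. That share is not given here, so these counts cannot be read as a result about the ligands. Ligands outside the Treg range for the response to IL-2 at 4 hr became 4 with TMM rescaling and 1 with a minimum of 5 RPKM, which also gave 1 for IL-2 at 1.5 hr and 1 for IL-2-REH at 4 hr. With 2 of 3 Treg replicates, 5 to 8 ligands were outside for levels in unstimulated cells and 4 to 8 with IL-2 at 4 hr, and for responses 3 to 8 at 1.5 hr and 2 to 5 at 4 hr with either cytokine. The range of 2 libraries is never wider than that of 3, so such counts cannot fall, for any gene. The share of all genes outside the range under these alternatives is not given here, so the counts are no result about the ligands.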
